A study of Mus musculus with 23 samples.

Results

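The nuclear-encoded genes of the mitochondrial respiratory chain and ATP synthase were followed through the cells of mouse bone marrow. Members were the gene rows whose symbol starts with Nduf, Uqcr or Atp5 or matches Cox4 to Cox8, together with Sdha, Sdhb, Sdhc, Sdhd and Cycs, with symbols holding -ps left out. This rule uses names and no measured value, and it gave 93 of the 23536 gene rows. By role, 36 rows are structural genes of complex I, 7 are complex I assembly factors (Ndufaf genes), 4 belong to complex II, 8 to complex III, 1 is cytochrome c (Cycs), 20 belong to complex IV and 15 to ATP synthase (complex V). Atp5s and Atp5sl make up the other two rows. Ndufa4 and Ndufa4l2 were counted with complex IV, of which Ndufa4 is a subunit despite its name.

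Complex I takes electrons from NADH and complex II from succinate, and both pass them to ubiquinone. Complex III hands them on to cytochrome c, a small soluble protein that also triggers apoptosis when it leaves the mitochondrion, and complex IV (cytochrome c oxidase) passes them to oxygen. Complexes I, III and IV pump protons, and ATP synthase lets them flow back to make ATP. Most subunits are encoded in the nucleus and the others in mitochondrial DNA, and the nuclear ones are textbook targets of the factors NRF1, GABP (an ETS factor) and YY1. Blood stem cells are known to rest largely on glycolysis, erythroblasts clear their mitochondria before they become red cells, and neutrophils mature with few active mitochondria.

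Single cells from 2 sources were measured by CEL-seq, which tags 1 end of each transcript, so that a value counts transcripts and is not scaled to gene length. Micro-dissected cells came from gently flushed marrow, in which clumps were teased apart with needles. Sorted cells were hematopoietic stem cells (HSC), taken by the surface phenotype Lin- Kit+ Sca1+ CD150+ CD48-. The labels give no strain, age, sex or treatment for either group, and no genotype other than mouse. No animals are named either. The p-values therefore rest on how far libraries differ, which can be technical variation alone, and sorted replicates 3 to 5 share a label stem and could be plates of 1 sort. All dissected libraries were run on an Illumina NextSeq500, whereas the labels name this machine or a HiSeq2500 for the sorted ones, so that source, isolation and sequencer cannot be told apart between the groups.

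Of 1915 cell columns, the 952 with at least 1000 transcripts were kept, 707 of them in 17 dissected libraries and 245 in 4 sorted libraries. Kept cells of a dissected library held 9032 to 313488 transcripts in all. Sorted replicate 1 kept only 2 cells with 3119 transcripts, and 1 transcript there is worth 321 CPM (transcripts scaled to a library sum of 1000000), so its zeros say little. The sort label held up in the marker sum: the 18 HSC and multipotent progenitor markers gave 7245 CPM in sorted cells against 630 in dissected cells. Procr and Mecom had 57.2 and 65.2 transcripts in sorted cells, and were the only 2 of the 18 with 0 in dissected ones. For the sort markers only totals over the 245 sorted and 707 dissected cells are given, not scaled to cell number or depth. Kit had 262.3 transcripts in sorted against 125.5 in dissected cells, and Ly6a (Sca1) 177.9 against 135.5. Slamf1 (CD150) had 24.1 against 99.4, and Cd48 3.0 against 171.9. With fewer sorted cells kept, the smaller Slamf1 total does not show a lower level in sorted cells. All 93 members had a transcript in the kept cells, 14 of them fewer than 60 in all. No column of the kept cells equalled another. The cell numbers run through the whole table, 1915 for 1915 columns, so they could not show sharing between libraries. Dissected cells were clustered without the member genes, and clusters were named from marker lists. Erythroblast-like cells were split into stages in 2 ways. By cell, a cell was early if it held more Car1 (carbonic anhydrase, high in young erythroid cells) than Slc4a1 (the band 3 anion exchanger), which gave 39 early and 204 late cells. By cluster, the cluster led by Car1 and Minpp1 was early (83 cells) and the others late (160 cells). Classes were compared over libraries that held at least 5 cells of the class.

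Among the classes with at least 3 libraries, respiratory chain transcripts made up the largest share of the transcriptome in early erythroblast-like cells and the smallest in mature neutrophil-like cells. Muscle-like cells, with 1 such library at 3.46%, are described further on. Early erythroblast-like cells gave 3.16% ± 0.447 of all transcripts (SD, n = 8 libraries, by cluster), with 2.51% as the lowest, 3.12% as the median and 4.03% as the highest library. Split by cell, the 2 libraries with enough early cells gave 2.91% and 3.26%, and late cells 1.92% ± 0.552 (n = 11, 1.17 to 2.72%), which took them above the HSC mean. Promyelocyte-like cells followed at 2.26% ± 0.288 (n = 7, 1.93 to 2.75%). Monocyte and dendritic-like cells stood at 2.12% ± 0.270 (n = 5, with 1.70, 2.03, 2.19, 2.32 and 2.37%). The 3 sorted HSC libraries with 5 cells or more gave 1.84, 2.18 and 1.64%, a mean of 1.89% ± 0.274, and eosinophil-like cells gave 1.77% ± 0.162 (n = 3, with 1.95, 1.66 and 1.68%). Late erythroblast-like cells held 1.59% ± 0.270 (n = 10, by cluster, 1.17 to 1.998%) and myelocyte-like cells 1.41% ± 0.0802 (n = 12, 1.28 to 1.54%). Mature neutrophil-like cells held 0.861% ± 0.149 (n = 5, with 1.06, 0.780, 0.944, 0.672 and 0.852%), and all 5 libraries lay below every myelocyte-like library. The lowest early erythroblast-like library lay below the highest promyelocyte-like one. Neighbours in this order, from promyelocyte-like down to myelocyte-like, overlapped in their library values, so that HSC cannot be set apart from promyelocyte-like, monocyte and dendritic-like, eosinophil-like or late erythroblast-like cells by this sum. In classes with too few cells per library, the pooled share was 1.84% in 18 macrophage-like cells, 2.05% in 9 plasma-cell-like cells and 1.38% in 8 megakaryocyte-like cells, with no error over libraries.

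**Figure D1:**
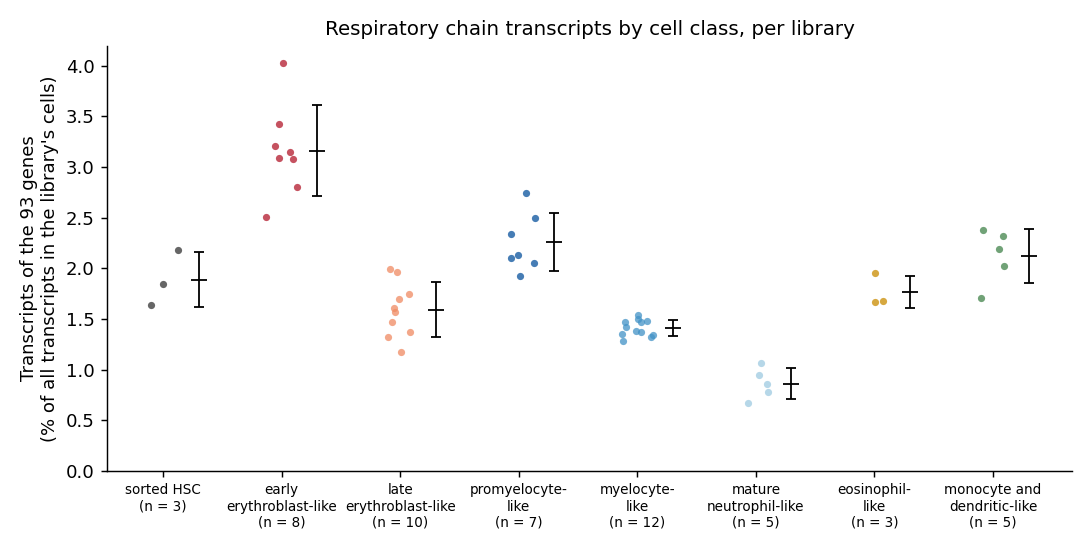
Share of all transcripts that came from the 93 genes, in percent, by cell class (x axis). Each point is a library with at least 5 cells of the class, and the bar beside the points is the mean ± SD. Early erythroblast-like libraries (2.51 to 4.03%) lie highest, mature neutrophil-like ones (0.672 to 1.06%) lowest, and the 3 sorted HSC libraries (1.64 to 2.18%) in between. Stages of erythroblast-like cells are by cluster.

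The classes also differed in depth and in how much of the library their own markers filled. Early cells by cluster held a median of 3303 transcripts per cell and late ones 1549, promyelocyte-like cells 5625, myelocyte-like cells 2803 and mature neutrophil-like cells 1369. Genes of the marker lists took 16.5% ± 1.87 of transcripts in myelocyte-like cells and 19.4% ± 1.14 in eosinophil-like cells, but 3.16% ± 0.979 in early erythroblast-like and 1.55% ± 0.157 in sorted HSC. With all marker genes removed from the total, the respiratory chain share became 3.26% in early and 1.72% in late erythroblast-like cells, 2.45% in promyelocyte-like, 1.69% in myelocyte-like, 0.989% in mature neutrophil-like, 2.19% in eosinophil-like and 1.92% in sorted HSC. Among these classes the early erythroblast-like mean was again the highest and the neutrophil-like mean the lowest, while the eosinophil-like mean moved above that of HSC. The 1 muscle-like library became 3.95%. The part of depth in the differences between classes was not tested.

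Complexes I, IV and V carried most of these transcripts, and complexes II and III and cytochrome c carried much less. In early erythroblast-like cells complex I held 0.919% ± 0.0992 of all transcripts, complex IV 0.916% ± 0.141 and complex V 0.911% ± 0.177, against 0.268% ± 0.0616 for complex III, 0.0742% ± 0.0209 for complex II and 0.0531% ± 0.0209 for Cycs (n = 8). The 3 large complexes were not level in every class: late erythroblast-like cells by cluster had 0.399% for complex I, 0.544% for complex IV and 0.4657% for complex V. Sorted HSC had 0.542% ± 0.0748 for complex I, 0.504% ± 0.122 for complex IV, 0.580% ± 0.0512 for complex V, 0.163% ± 0.0381 for complex III, 0.0572% ± 0.01 for complex II and 0.0187% ± 0.0074 for Cycs (n = 3). Averaged over all libraries, the most abundant members were Atp5b (923 CPM), the catalytic beta subunit of ATP synthase, Cox6c (896) and Cox8a (881), both small subunits of complex IV. Below these came Atp5g3 (625), which encodes the membrane ring subunit c of ATP synthase, Atp5a1 (546), its alpha subunit, and Cox5b (543). In complex I the leading genes were the accessory subunits Ndufa2 (353), Ndufa6 (350) and Ndufa1 (270). In complex III they were Uqcrh (344), the hinge protein that docks cytochrome c, Uqcr11 (301), its smallest subunit, and Uqcrb (173), which lies at the ubiquinone site. Sdhc (158), Sdha (104) and Sdhd (98.8) led complex II, and Cycs had 333. Many of these genes have processed copies elsewhere in the genome, and how the authors' counting split reads between copies is not given in the sources used here, so single-gene levels are uncertain to that extent, in particular for Cycs and the Atp5g genes.

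**Figure D2:**
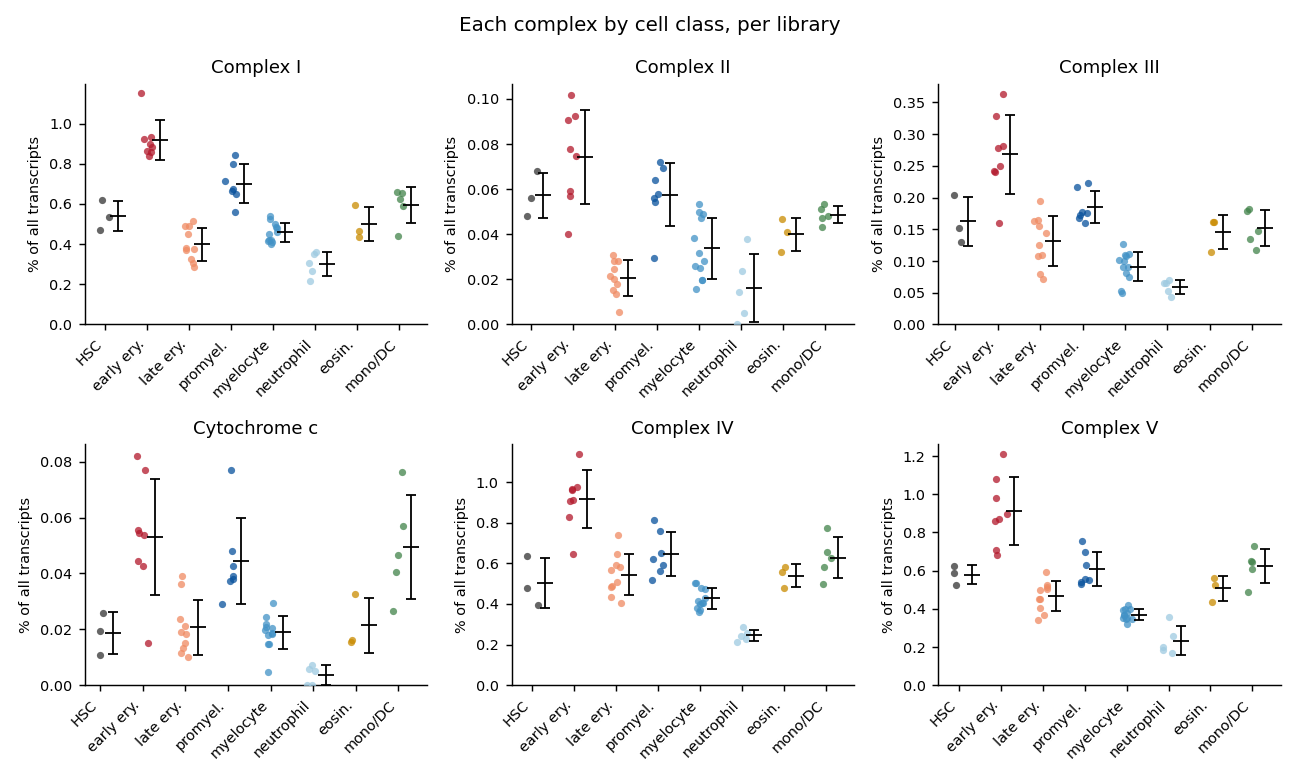
Share of all transcripts from each complex and from cytochrome c, in percent, by cell class, with each y axis on its own scale from 0. Points are libraries with at least 5 cells and bars are the mean ± SD. In each of the 6 panels the mature neutrophil-like class has the lowest mean and the early erythroblast-like class the highest (0.919% ± 0.0992 for complex I).

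Late erythroblast-like cells had a smaller respiratory chain share than early ones. In all 7 libraries that held both stages by cluster, the late cells had the lower share, with a median late to early ratio of 0.529 (lowest 0.428, highest 0.586). The ratio was below 1 in 7 of 7 libraries for complex I (median 0.446), complex II (0.306), complex III (0.535), complex IV (0.610) and complex V (0.503), and in 6 of 7 for cytochrome c (0.344). Of the 83 members with a median above 0 in either stage, 80 were lower in the late cells, where 68.5% of all such genes were lower. Split by cell, the 2 libraries with both stages had ratios of 0.533 and 0.717.

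By cluster, single subunits fell in complexes I, III, IV and V, as did cytochrome c. Few genes could be tested: 2 of 36 in complex I (1 fell), 2 of 8 in complex III (1 fell) and 0 of 4 in complex II. In complex IV 8 of 20 were tested (6 fell), and in complex V 7 of 15 (4 fell). The folds given here come from edgeR on transcripts summed per library, with the library as a block and TMM scaling, and are on the log2 scale. At complex I, Ndufa2 went from a median of 489 CPM (lowest 302, highest 677) to 365 (142 to 635) and fell by 0.62 ± 0.26 (SE, adjusted p = 0.0263). At complex III, Uqcr11 went from 636 (213 to 932) to 266 (0 to 438) and fell by 1.22 ± 0.27 (adjusted p = 5.81e-05), lower in 7 of 7 libraries. Cycs, the electron shuttle, went from 540 (151 to 821) to 187 (99.8 to 390) and fell by 1.26 ± 0.29 (adjusted p = 0.000127), lower in 6 of 7 libraries. For these 3 genes the ranges of early and late libraries overlapped.

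At complex IV, Cox7c went from 1250 (706 to 1707) to 483 (200 to 760) and fell by 1.15 ± 0.22 (adjusted p = 4.47e-06), and Cox5b went from 815 (666 to 1501) to 425 (330 to 724) and fell by 0.98 ± 0.22 (adjusted p = 5.59e-05). Both genes encode structural subunits of the oxidase, and both were lower in the late cells of 7 of 7 libraries. Smaller falls passed the test for Cox6b1, Cox6c, Cox4i1 and Cox8a, between 0.47 and 0.55. Of these, Cox4i1 lost its call in 9 of 13 alternative settings, Cox6b1 in 8 of 13 and Cox6c in 6 of 13. Cox6a1 (log2 fold change -0.05 ± 0.21, adjusted p = 0.837) and Cox7a2 (-0.32 ± 0.26, adjusted p = 0.254) did not pass. At ATP synthase, Atp5g3 went from 1017 (667 to 1252) to 413 (239 to 542) and fell by 1.53 ± 0.24 (adjusted p = 7.22e-08). Atp5a1 went from 1010 (720 to 1239) to 410 (0 to 673) and fell by 1.43 ± 0.24 (adjusted p = 3.52e-07). The early and late libraries did not overlap for Atp5g3 or Atp5a1. Atp5b went from 1909 (1266 to 2865) to 1095 (713 to 1492) and fell by 0.70 ± 0.19 (adjusted p = 0.000611), and Atp5l, subunit g, fell by 0.62 ± 0.25 (adjusted p = 0.0194).

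In that fit by cluster 20 members had enough transcripts to be tested, and 13 fell and 0 rose (adjusted p under 0.05). Of all 445 genes tested 79.3% changed, 37.3% falling and 42% rising, and the median log2 fold change was -0.51 over the tested members and 0.08 over all genes. The tested members are the abundant ones and do not stand for all 93. In the fit split by cell, with only 2 libraries holding both stages, 2 of 37 tested members fell, Ndufa12 by 1.79 ± 0.67 (adjusted p = 0.0448) and Cox7b by 1.60 ± 0.52 (adjusted p = 0.0241), and 0 rose. The background there was 17.1% of 773 genes, 5.3% falling and 11.8% rising, and with DESeq2 neither member passed.

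From promyelocyte-like to myelocyte-like cells, the step at which granule genes of the neutrophil line switch, the share fell again. Myelocyte-like cells had the lower share in 7 of 7 libraries that held both classes, with a median ratio of 0.641 (lowest 0.548, highest 0.715). The ratio was below 1 in 7 of 7 libraries for complex I (median 0.610), II (0.720), III (0.578), IV (0.673) and V (0.637) and for cytochrome c (0.492). Of 81 members with a median above 0, 76 were lower, where 68.6% of all such genes were lower.

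By gene, the clearest falls were in complex III, cytochrome c and ATP synthase. Uqcr11 went from a median of 374 CPM (262 to 569) to 134 (31.4 to 228) and fell by 1.03 ± 0.26 on the log2 scale (adjusted p = 0.000658), with no overlap between the classes. Atp5d, the delta subunit at the base of the rotor, went from 280 (246 to 406) to 136 (31.4 to 199) and fell by 1.04 ± 0.30 (adjusted p = 0.00243), again without overlap. Cycs went from 392 (289 to 770) to 193 (48.0 to 295) and fell by 0.95 ± 0.25 (adjusted p = 0.00101). Promyelocyte-like and myelocyte-like libraries overlapped for Cycs only where the lowest of the first class met the highest of the second. Cox7b, a complex IV subunit, went from 505 (271 to 790) to 188 (0 to 409) and fell by 0.88 ± 0.25 (adjusted p = 0.00243). Falls of 0.40 to 0.67 passed for Uqcrb, Ndufa3, Ndufb3, Ndufa6, Ndufc2, Cox5a, Atp5g3, Atp5a1, Atp5l and Atp5b. Of these, Cox5a lost its call in 8 of 14 alternatives (highest adjusted p = 0.101), and the calls of the Atp5 genes are followed further on.

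In all, 14 of 33 tested members fell and 0 rose, beside 56.3% of 636 genes changed, 28.8% falling and 27.5% rising, with medians of -0.33 over the tested members and 0.04 over all genes. This count depends strongly on the scaling, the tool, the clustering and the libraries. It was 29 with library totals, under which the median of all genes shifted by -0.48, but 4 with DESeq2, 6 with finer clustering, 6 with no expression filter, 7 with cells of at least 2000 transcripts, 1 with sums of at least 3 cells, and 7 without dissected replicate 15 or 17. Marker genes of the myelocyte list rose from 2.81% ± 1.09 to 14.5% ± 1.94 of transcripts over the same step.

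**Figure D3:**
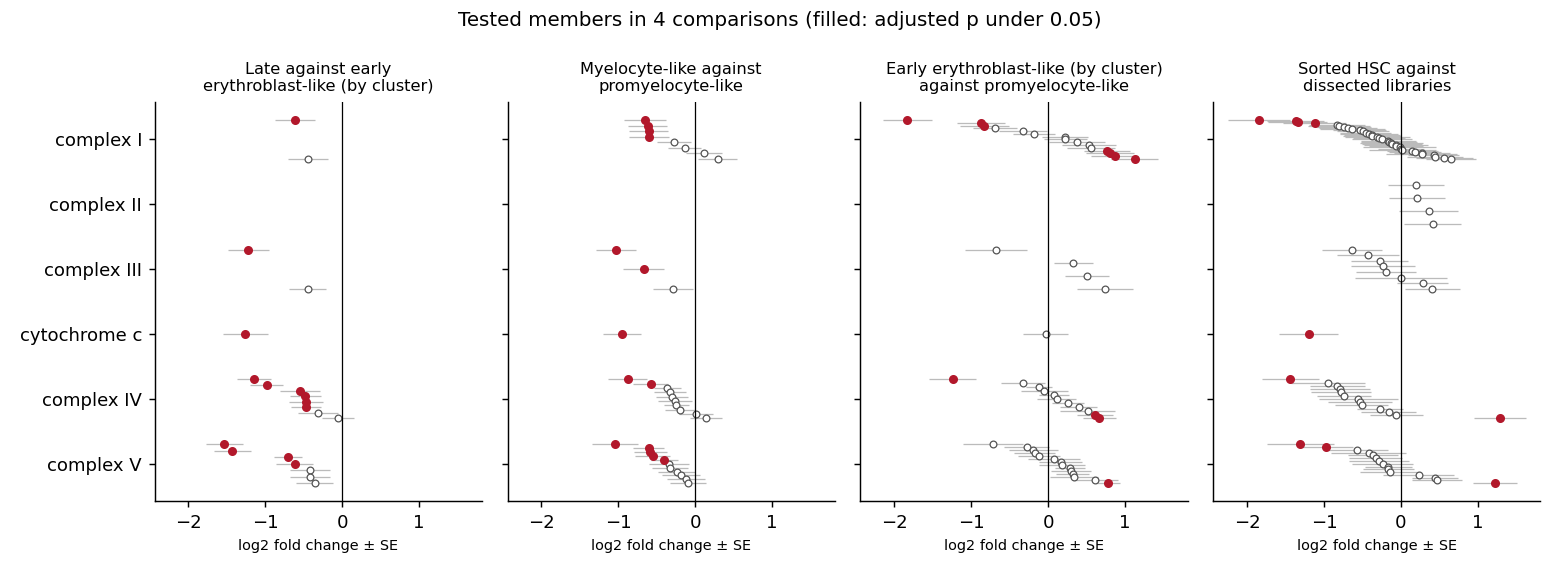
Log2 fold change ± SE of each tested member in 4 comparisons, grouped by complex (y axis), with filled points past an adjusted p of 0.05. All filled points lie left of 0 for late against early erythroblast-like cells (13 genes) and for myelocyte-like against promyelocyte-like cells (14 genes), and on both sides for the other two comparisons. SEs are approximate.

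The members that fell at both of these steps were 6: Cycs, Uqcr11, Atp5g3, Atp5a1, Atp5b and Atp5l, out of 13 and 14 that fell at each. At the myelocyte step Cycs and Uqcr11 kept their calls in the 13 of 14 alternatives that tested them, and Atp5g3 lost its call in 1 of 14. Atp5a1 lost it in 7 of 14 (highest adjusted p = 0.131), Atp5l in 9 of 14 (0.256) and Atp5b in 11 of 14 (0.311). At the erythroblast step Atp5l lost its call in 4 and Atp5b in 1 of 13 alternatives, and the other 4 genes in 0. Promoter windows of 4 of the 6 are printed, and show which hold letters that the factors named above are known to bind. The windows run from 250 bases before to 50 after the RefSeq start (GRCm38.p6). Those of Cycs at chr6:50566520-50566819, Uqcr11 at chr10:80406772-80407071 and Atp5g3 at chr2:73911277-73911576 are on the minus strand, and that of Atp5b at chr10:128083057-128083356 is on the plus strand. Capitals mark matches, on either strand, to GCGCANGCG (an NRF1 motif) or CCGGAAGT (an ETS motif).
Cycs: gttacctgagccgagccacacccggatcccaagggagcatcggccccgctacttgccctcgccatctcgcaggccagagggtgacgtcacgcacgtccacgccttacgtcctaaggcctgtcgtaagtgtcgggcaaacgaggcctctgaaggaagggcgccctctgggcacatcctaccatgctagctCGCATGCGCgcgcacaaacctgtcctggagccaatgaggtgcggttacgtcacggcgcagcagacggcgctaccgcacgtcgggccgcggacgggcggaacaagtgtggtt
Uqcr11: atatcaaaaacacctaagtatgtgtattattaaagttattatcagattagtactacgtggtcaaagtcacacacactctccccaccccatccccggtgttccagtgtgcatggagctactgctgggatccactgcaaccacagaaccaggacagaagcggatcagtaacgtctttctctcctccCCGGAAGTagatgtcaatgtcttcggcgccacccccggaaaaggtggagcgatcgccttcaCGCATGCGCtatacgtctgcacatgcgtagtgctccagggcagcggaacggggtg
Atp5g3: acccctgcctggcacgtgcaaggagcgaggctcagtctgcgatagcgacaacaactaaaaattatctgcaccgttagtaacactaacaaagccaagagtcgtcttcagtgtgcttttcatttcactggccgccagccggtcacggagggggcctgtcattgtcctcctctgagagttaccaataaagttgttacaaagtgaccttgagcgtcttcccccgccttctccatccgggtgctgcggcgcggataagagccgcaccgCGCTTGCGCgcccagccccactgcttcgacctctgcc
Atp5b: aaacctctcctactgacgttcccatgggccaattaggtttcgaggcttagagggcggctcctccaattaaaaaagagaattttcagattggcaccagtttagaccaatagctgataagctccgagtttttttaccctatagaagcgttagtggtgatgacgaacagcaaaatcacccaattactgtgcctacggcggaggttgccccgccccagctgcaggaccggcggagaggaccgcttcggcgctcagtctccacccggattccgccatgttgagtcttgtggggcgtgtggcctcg
The first 3 windows each hold 1 match to the NRF1 letters, the Uqcr11 window also holds 1 match to the ETS letters, and the Atp5b window holds 0 matches to either. The Atp5l window, not printed, holds 1 NRF1 match. RefSeq promoters were matched by symbol for 74 of the 93 members, with 79 windows. The NRF1 letters were in 24 of the 79 windows (30.4%), against 6.24% of all 32817 windows of this length. The ETS letters were in 5 (6.33%, against 3.89%), and AAGATGGCG, a YY1 motif, in 7 (8.86%, against 1.40%). At least 1 of the 3 motifs was in 33 windows (41.8%, against 10.6%). These matches describe letters in a window and were not tested for binding. The Cycs gene itself lies on chromosome 6 at 50562563 to 50566538, Uqcr11 on chromosome 10 at 80402997 to 80406830, and Atp5g3 on chromosome 2 at 73908447 to 73911326 (GRCm38, GENCODE), all on the minus strand.

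Mature neutrophil-like cells fell further below myelocyte-like cells in their share of respiratory chain transcripts, in 5 of 5 libraries, with a median ratio of 0.664 (lowest 0.488, highest 0.790). The ratio was below 1 in all 5 libraries for complex I (median 0.633), complex IV (0.612) and cytochrome c (0.253), and in 4 of 5 for complex II (0.503), III (0.606) and V (0.494). Of 78 members with a median above 0, 68 were lower, where 67.9% of all such genes were lower. By gene the depth allowed little: 4 members could be tested and 0 passed in edgeR (1 at an unadjusted p under 0.05, and 0 in DESeq2), beside 48.2% of 303 genes, 23.4% higher and 24.8% lower. Without dissected replicate 3, which left more genes to test, 5 members fell, and without replicate 17 1 did.

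Early erythroblast-like cells were compared with promyelocyte-like cells, the youngest class of the other main line. The early erythroblast-like share was higher in 5 of 5 libraries that held both classes, with a median ratio of 1.35 (1.29 to 1.503), and 65 of 85 members were higher, where 48.9% of all genes were. Single genes moved both ways. In complex I, Ndufv3, an accessory subunit of the NADH-binding module, was at a median of 146 CPM (100 to 463) in early erythroblast-like and 461 (269 to 694) in promyelocyte-like cells. It was lower by 1.83 on the log2 scale (log2 fold change -1.83 ± 0.32, adjusted p = 0.000142), and lower in 5 of 5 libraries, although the ranges overlapped. Ndufb9, in the membrane arm, went the other way, with 391 (284 to 627) against 211 (89.0 to 242) and a log2 fold change of 1.12 ± 0.31 (adjusted p = 0.00616). The erythroblast-like libraries all lay above the promyelocyte-like ones for Ndufb9. Ndufs3, a core subunit, Ndufb10 and Ndufa12 were also higher, and Ndufb3 and Ndufa1 lower.

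In complex IV, Cox5a was lower in early erythroblast-like cells, at 257 (177 to 481) against 486 (229 to 589), with a log2 fold change of -1.24 ± 0.31 (adjusted p = 0.00313). Cox7c (0.67 ± 0.21, adjusted p = 0.0167) and Cox6a1 (0.61 ± 0.23, adjusted p = 0.0384) were higher. In ATP synthase, Atp5b was higher, at 1909 (1266 to 2865) against 894 (725 to 1112), with no overlap and a log2 fold change of 0.78 ± 0.16 (adjusted p = 0.000617). In all, 45 members were tested, of which 7 were higher and 4 lower, beside 47.5% of 615 genes changed, 21.5% higher and 26% lower. With library totals in place of TMM 16 were higher and 2 lower, as the median of all genes shifted by 0.30, so that the balance of directions depends on the scaling. The count fell to 7, 5 and 6 without dissected replicates 11, 15 and 17, and to 4 with DESeq2. The design called for stages split by cell here, but only 1 library then held both classes, and stages by cluster were used instead.

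**Figure D4:**
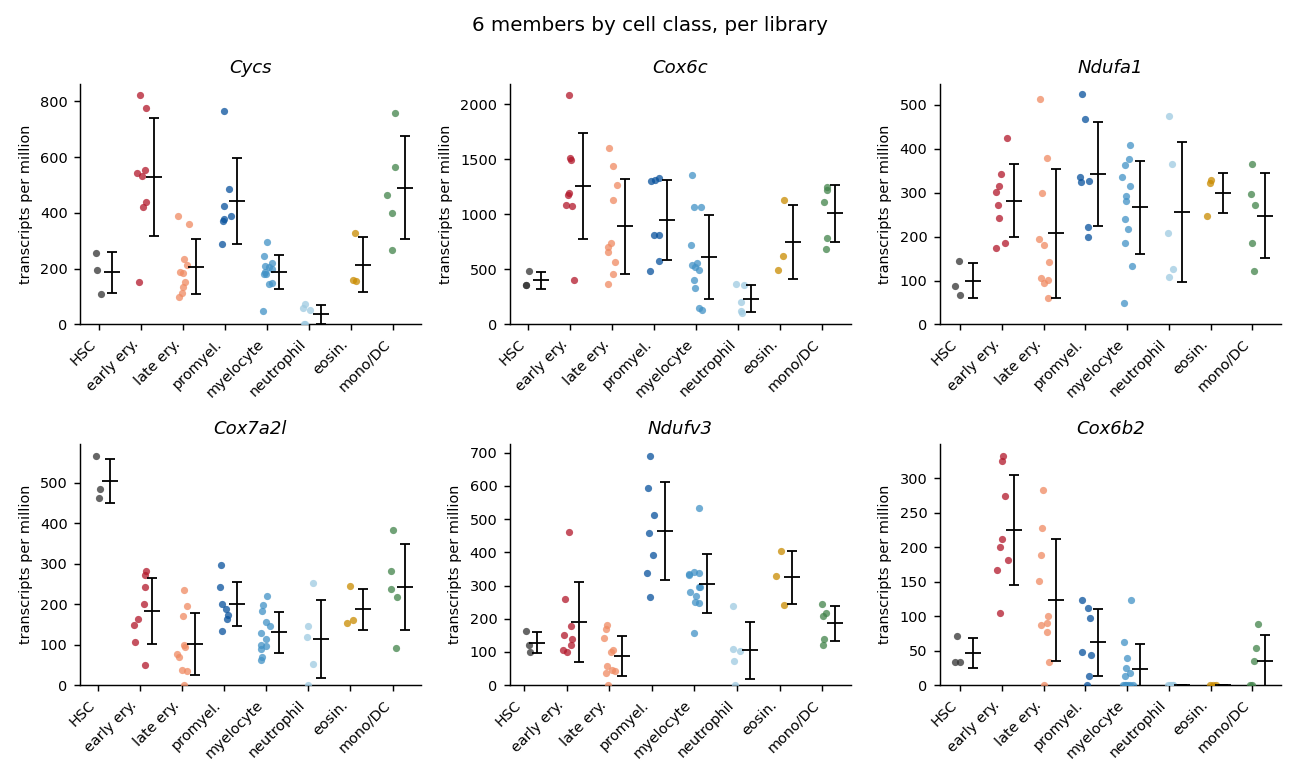
CPM of 6 members by cell class, with each y axis on its own scale from 0. Points are libraries with at least 5 cells, and bars are the mean ± SD, with the lower end stopped at 0. Cox7a2l is highest in the 3 sorted HSC libraries, Ndufv3 is highest in promyelocyte-like cells, and Cox6b2 is highest in early erythroblast-like cells (225 ± 80.2 by cluster).

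The total share of respiratory chain transcripts differed between sorted HSC and the dissected libraries by less than the spread between libraries, 1.82% ± 0.264 (n = 4, with 1.61, 1.84, 2.18 and 1.64%) against 1.98% ± 0.313 (n = 17, 1.34 to 2.51%), while single members differed. The dissected libraries are mixtures of all classes above, so that class proportions and levels within a class cannot be told apart in this comparison. Of 76 tested members 8 were lower and 2 higher in sorted HSC, beside 30.4% of 3639 genes changed, 19.2% lower and 11.2% higher, a larger share than among the members. The median of all genes was -0.16 and moved to 0.17 with library totals, under which 5 members were lower and 6 higher.

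The lower genes of complex I were accessory subunits. Ndufa1, of the membrane arm, had 0, 88.2, 146 and 66.7 CPM in sorted replicates 1, 3, 4 and 5, against a median of 295 (111 to 495) in the dissected libraries, and fell by 1.84 ± 0.40 on the log2 scale (adjusted p = 0.000485). Only sorted replicate 4 reached into the dissected range. Ndufb3 had 0, 113, 85.6 and 83.4 against 222 (122 to 373), so that no sorted library reached the dissected ones, and fell by 1.37 ± 0.37 (adjusted p = 0.00465). Ndufv3 had 0, 122, 163 and 100 against 301 (148 to 476) and fell by 1.34 ± 0.38 (adjusted p = 0.00654), and Ndufa5 fell by 1.12 ± 0.41 (adjusted p = 0.035). Cycs had 0, 109, 257 and 195 against 336 (140 to 891) and fell by 1.20 ± 0.38 (adjusted p = 0.0151), with overlap. In complex IV, Cox6c had 644, 362, 488 and 356 against 901 (395 to 2010) and fell by 1.44 ± 0.37 (adjusted p = 0.00301). In ATP synthase the small membrane subunit e, Atp5k, fell by 1.31 ± 0.43 (adjusted p = 0.0192) and Atp5h, subunit d of the stalk, by 0.97 ± 0.35 (adjusted p = 0.0305).

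The higher genes were Cox7a2l and Atp5g2. Cox7a2l, the relative of Cox7a that joins complexes III and IV into supercomplexes, had 644, 564, 463 and 484 CPM in sorted replicates 1, 3, 4 and 5 against a median of 174 (0 to 571). Its log2 fold change was 1.28 ± 0.34 (adjusted p = 0.00352). The sorted libraries other than the 2-cell replicate 1 lay in the upper part of the dissected range and not above it. Replicate 1 lay above every dissected library, but 1 transcript is worth 321 CPM there. Atp5g2, 1 of 3 genes for subunit c, had 321, 729, 686 and 675 against 217 (140 to 351). Its log2 fold change was 1.22 ± 0.29 (adjusted p = 0.00125), and every sorted library but the 2-cell replicate 1 lay above all dissected ones. The 10 calls were the same without replicate 1, while 6 of them were left without sorted replicate 3 and 5 without replicate 5. Both higher genes and Ndufa1, Ndufb3 and Cox6c kept their calls in all 11 alternatives run for this comparison.

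Against single classes the same 2 genes were higher in sorted HSC, now over the 3 libraries with 5 cells or more. These comparisons share the sorted libraries and are not independent of each other. Cox7a2l stood at 564, 463 and 484 in HSC, against 189 (135 to 298) in promyelocyte-like and 183 (50.0 to 282) in early erythroblast-like cells by cluster, with no overlap. Its log2 fold changes were 1.47 ± 0.35 (adjusted p = 0.000462) and 1.92 ± 0.35 (adjusted p = 2.52e-06). Atp5g2 stood at 729, 686 and 675, against 371 (202 to 610) and 258 (0 to 587), also with no overlap. Its log2 fold changes were 1.07 ± 0.36 (adjusted p = 0.0167) and 1.77 ± 0.37 (adjusted p = 3.41e-05). By cluster, both genes kept these calls against early erythroblast-like cells in 16 of 16 alternatives. Against promyelocyte-like cells Cox7a2l lost its call in 1 of 18 alternatives, sums of at least 10 cells (adjusted p = 0.323), which leave 1 promyelocyte-like library. Atp5g2 lost it in 4 of 18, with those sums (adjusted p = 0.765), with no expression filter (0.0975), and without sorted replicate 3 (0.0844) or 4 (0.0508). Monocyte and dendritic-like cells had the next highest mean of both genes among the classes of the level plot, 243 ± 106 for Cox7a2l and 421 ± 90.2 for Atp5g2.

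Against promyelocyte-like cells 5 of 68 tested members were lower and 2 higher, beside 27.8% of 2546 genes, 15.2% lower and 12.6% higher. The lower ones were Ndufb3 (-1.82 ± 0.41, adjusted p = 0.000221), Ndufv3 (-1.65 ± 0.40, adjusted p = 0.000639), Ndufa1 (-1.59 ± 0.42, adjusted p = 0.00177), Cycs (-1.04 ± 0.37, adjusted p = 0.0257) and Cox6c (-1.02 ± 0.40, adjusted p = 0.0473). Without sorted replicate 3, 4 members passed. Against early erythroblast-like cells by cluster 9 of 65 tested members were lower and 2 higher, beside 43.8% of 2281 genes, 15.5% lower and 28.3% higher. The largest falls were those of Ndufa5, with 75.6, 94.2 and 38.9 in HSC against 309 (201 to 445), no overlap and a log2 fold change of -1.60 ± 0.46 (adjusted p = 0.00256), and of Atp5k (-1.41 ± 0.42, adjusted p = 0.00371). Cox7c (-1.14 ± 0.37), Cox6c (-1.13 ± 0.39), Cycs (-1.06 ± 0.36), Ndufb6 (-1.02 ± 0.40), Ndufa1 (-1.02 ± 0.42), Ndufb10 (-0.98 ± 0.38) and Ndufb3 (-0.93 ± 0.39) also passed. Without dissected replicate 16 21 members passed, and without sorted replicate 3 or 5 only 5 or 4.

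Split by cell, 8 of 68 tested members were lower in HSC than in early erythroblast-like cells and 2 higher, beside 23.2% of 2546 genes, 9.7% lower and 13.5% higher. That fit sets 3 sorted libraries against 2, and 2 members passed without dissected replicate 7 or 11 and 4 without sorted replicate 5. Ndufa5, Cox6c, Atp5k, Cycs, Ndufa1 and Cox7c were lower under both ways of staging, and Cox7b (-1.495 ± 0.50, adjusted p = 0.0211) and Ndufa12 (-1.28 ± 0.48, adjusted p = 0.0407) only passed by cell. Cox7a2l (1.96 ± 0.56) and Atp5g2 (1.65 ± 0.55) were higher. Neither passed with cells of at least 2000 transcripts (adjusted p = 0.14 and 0.32) or with no expression filter (0.056 and 0.0878), and Atp5g2 also did not pass without dissected replicate 7 (0.248) or sorted replicate 3 (0.058).

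The promoter windows of the 2 genes that were higher in HSC, and of Atp5k, which was lower, are set side by side as examples from each direction, with NRF1 matches in capitals as above. Atp5k did not pass against promyelocyte-like cells. It lost its call in 5 of 11 alternatives against dissected libraries (highest adjusted p = 0.207). Against early erythroblast-like cells it lost its call in 4 of 13 by cell and 1 of 16 by cluster. The windows lie on the minus strand at chr15:102670998-102671297 (Atp5g2), chr17:83514284-83514583 (Cox7a2l) and chr5:108434350-108434649 (Atp5k), from RefSeq, GRCm38.p6.
Atp5g2: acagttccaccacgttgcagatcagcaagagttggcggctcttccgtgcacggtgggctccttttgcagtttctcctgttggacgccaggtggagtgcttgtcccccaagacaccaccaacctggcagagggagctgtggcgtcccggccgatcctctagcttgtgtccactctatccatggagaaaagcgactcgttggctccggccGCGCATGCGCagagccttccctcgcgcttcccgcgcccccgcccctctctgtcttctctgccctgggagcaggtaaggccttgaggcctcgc
Cox7a2l: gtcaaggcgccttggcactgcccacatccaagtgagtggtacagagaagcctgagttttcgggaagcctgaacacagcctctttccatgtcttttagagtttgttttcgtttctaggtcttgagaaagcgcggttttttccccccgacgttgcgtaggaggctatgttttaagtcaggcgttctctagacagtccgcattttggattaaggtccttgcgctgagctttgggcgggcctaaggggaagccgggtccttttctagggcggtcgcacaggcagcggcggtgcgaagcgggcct
Atp5k: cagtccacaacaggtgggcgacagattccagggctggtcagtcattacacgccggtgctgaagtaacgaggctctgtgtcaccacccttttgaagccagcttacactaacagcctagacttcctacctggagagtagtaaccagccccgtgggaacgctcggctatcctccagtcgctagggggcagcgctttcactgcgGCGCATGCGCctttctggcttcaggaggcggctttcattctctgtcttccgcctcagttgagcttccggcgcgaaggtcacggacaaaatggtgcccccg
The Atp5g2 and Atp5k windows each hold 2 overlapping matches, 1 on each strand. The Cox7a2l window holds 0 matches to the NRF1, ETS or YY1 letters.

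Subunit c of ATP synthase is made from 3 genes, Atp5g1, Atp5g2 and Atp5g3, whose mature proteins are the same, and the classes drew on them in different proportions. In sorted HSC, Atp5g2 made up 44.3% ± 4.04 of their transcripts (n = 3, with 39.8, 45.4 and 47.7%), Atp5g3 36.1% ± 1.62 and Atp5g1 19.6% ± 2.84. Early erythroblast-like cells by cluster drew 55.1% ± 18.4 from Atp5g3, 31.4% ± 14.1 from Atp5g1 and 13.5% ± 7.87 from Atp5g2 (n = 8), and every early library (0 to 27.9%) lay below every HSC library for Atp5g2. In late cells Atp5g3 rose to 72.2% ± 9.55 of the 3, while Atp5g1 was at 13.1% ± 9.27 and Atp5g2 at 14.7% ± 9.65 (n = 10). Atp5g1 itself went from a median of 566 CPM (100 to 1285) in early to 70.6 (0 to 200) in late cells by cluster, lower in 7 of 7 libraries, but had too few transcripts to be tested there. Promyelocyte-like cells drew 26.2% ± 7.02 from Atp5g2 and monocyte and dendritic-like cells 30.4% ± 6.86. The shares themselves were described and not tested.

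**Figure D5:**
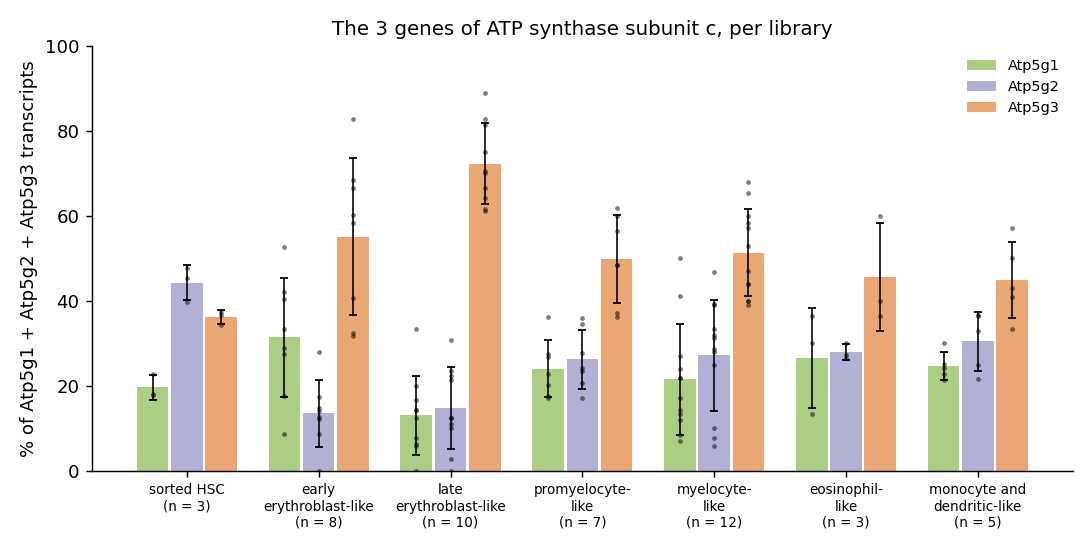
Percent of the summed Atp5g1, Atp5g2 and Atp5g3 transcripts that came from each gene, by cell class, as bars of the mean ± SD with each library as a point. Atp5g2 leads in sorted HSC (44.3% ± 4.04), and Atp5g3 leads in the other classes plotted, most of all in late erythroblast-like cells (72.2% ± 9.55). Mature neutrophil-like libraries are left out because they hold few of these transcripts.

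Complex IV has subunit isoforms that are known from other tissues, and some were found here. Cox6b2, known as the testis form of Cox6b, averaged 225 ± 80.2 CPM in early erythroblast-like cells by cluster (105 to 333, n = 8), beside 494 ± 187 for the common form Cox6b1. Cox6b2 was at 124 ± 88.2 in late erythroblast-like, 62.8 ± 48.8 in promyelocyte-like and 23.3 ± 37.1 in myelocyte-like cells, and at 71.4, 33.3 and 34.2 in the HSC libraries. It was higher in early erythroblast-like than in promyelocyte-like cells in 5 of 5 libraries, but passed no test: its log2 fold change in HSC against early erythroblast-like cells by cell was -1.91 ± 0.80 (adjusted p = 0.0718). The muscle forms Cox8b, Cox7a1 and Cox6a2 were found mostly in the 10 muscle-like cells, which held 78.4%, 77.4% and 60.2% of their transcripts but 1.2% of all kept transcripts. Of these cells 5 came from dissected replicate 11. They also had the largest pooled respiratory chain share of any class, 4.33% (95% exact binomial interval 4.12 to 4.54%, counting error only), and without them the sorted against dissected comparison called 9 members. The counterparts of these forms in other cells, Cox8a, Cox7a2 and Cox6a1, were seen in all classes of the level plot. The lung form Cox4i2, the testis forms Cox8c and Cox7b2, and the hypoxia-linked Ndufa4l2 had 1 transcript each in all 952 cells, whereas Cox4i1 had 1699 and Ndufa4 710. Cox6a2, Cox8b, Cox7b2, Cox8c and Ndufa4l2 had none in the 245 sorted cells, where 3 transcripts would be 5.56 CPM.

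Other genes of the pathway were read from lists in the same fits, and the background shares are those given above. No row of the table matched the 13 mitochondrially encoded subunits. Among the partners of ATP synthase, the ADP/ATP carrier Slc25a5 fell by 1.97 ± 0.24 from early to late erythroblast-like cells by cluster (adjusted p = 7.88e-11) and by 0.87 ± 0.19 from promyelocyte-like to myelocyte-like cells (adjusted p = 0.000128). The ATPase inhibitor Atpif1 rose by 0.39 ± 0.18 in the first step (adjusted p = 0.0483), and the phosphate carrier Slc25a3 fell by 1.08 ± 0.26 in the second (adjusted p = 0.000352). These were all the calls of that list, 2 of 2 and 2 of 6 tested genes. In sorted HSC against dissected libraries Atpif1 was lower (-1.35 ± 0.43, adjusted p = 0.0141) and 9 of the 10 tested partners did not pass. Against promyelocyte-like cells 1 of 10 was higher in HSC, Slc25a4 (2.43 ± 0.61, adjusted p = 0.000939), and 0 lower. Against early erythroblast-like cells by cluster Slc25a4 was higher (2.67 ± 0.61, adjusted p = 0.00017) and Atpif1 lower (-1.49 ± 0.40, adjusted p = 0.0012), of 9 tested. By cell Slc25a4 was also higher, and Atpif1 and Slc25a5 were lower.

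The glycolytic genes that could be tested differed between the 2 lineages in 1 direction. The list had 17 rows and did not hold the pyruvate kinase gene Pklr, and Hk1 was not among the 8 genes tested between these lineages. All 8 tested glycolytic genes were lower in early erythroblast-like than in promyelocyte-like cells, led by Pkm (-6.06 ± 0.40, adjusted p = 2.1e-09), Pgam1 (-5.49 ± 0.42, adjusted p = 1.39e-08) and Gpi1 (-3.96 ± 0.38, adjusted p = 1.97e-07). In HSC against early erythroblast-like cells by cluster 9 of 12 tested genes were higher and 0 lower, among them Pkm (4.62 ± 0.47, adjusted p = 2.35e-14). Hk1 (0.59 ± 0.43, adjusted p = 0.265), Hk3 and Pfkm did not pass there. In HSC against promyelocyte-like cells Hk3 (-4.89 ± 0.52, adjusted p = 8.15e-14), Pgam1 (-1.91 ± 0.38, adjusted p = 3.3e-05), Gpi1 and Pkm were lower and Pfkm (4.22 ± 0.98, adjusted p = 0.000363) higher, of 12 tested. Of the citric acid cycle, whose most abundant genes were Mdh2 (359 CPM over all libraries), Ogdh (312) and Cs (153), 2 of 13 tested genes were higher in sorted HSC than in dissected libraries (Idh2 and Suclg2) and 1 lower (Dlst). Among 6 tested assembly factors outside the rule, the copper chaperone Cox17 was lower in that comparison (-1.60 ± 0.42, adjusted p = 0.00326) and Cox14 (1.23 ± 0.32, adjusted p = 0.00383) and Acad9 (1.46 ± 0.48, adjusted p = 0.0188) were higher. Mitochondrial ribosome genes gave 2 higher (Mrpl11 and Mrps16) and 1 lower (Mrps36) of 39 tested, and 0 of the 2 tested biogenesis genes changed.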

How the data were processed

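Transcripts of single mouse bone marrow cells were measured by CEL-seq. Per the submitters' processing notes, BWA 0.6.2-r126 and the mm10 build were used; the sources used here give neither annotation nor counting steps. The values the authors deposited are estimated transcript counts (expected counts), which need not be whole, for 23536 gene rows and 1915 cell columns. Every column was assigned to a library by its name, and 21 of the 23 libraries in the labels are in the table. Dissected replicate 18 and sorted replicate 2 were not analysed here. The column names hold a running cell number and no barcode. Replicates were numbered in record order, which pairs no samples.

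A minimum of 1000 transcripts per cell was set, and no doublet caller was run. Clusters of dissected cells were made from log-normalized values without the member genes, by the Leiden method at resolution 1 (seed 1) on 15 neighbours in 30 principal components of 2000 variable genes (Python 3.11.15, scanpy 1.11.5, leidenalg 0.10.2). A cluster took the name of the list with most genes among its 10 leading genes by fold, with at least 3 markers detected in 25% of its cells at 2-fold the level elsewhere. At least 1 leading gene was required, and more than the next list had. Where no list had a leading gene, at least 10 raised markers and 2 times those of the next list also gave a name. Only the finer clustering used this second way, for a cluster with 20 raised erythroblast markers. A first version asked for more leading genes and left the cluster led by Car1 and Minpp1 unnamed, so the rule was loosened after the clusters had been seen. That cluster, used as the early erythroblast-like class, had 1 erythroblast marker among its 10 leading genes and 7 raised. Cluster 10, with 22 cells, stayed unnamed. Mature neutrophil-like cells also raised 10 of the myelocyte markers.

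Transcripts were summed per library, or per class and library with at least 5 cells, and rounded to whole numbers for the tests. Levels in CPM use the unrounded sum, scaled to 1000000. Differences were tested with edgeR 4.0.16 (quasi-likelihood test with robust fit, TMM and filterByExpr, R 4.3.3), with p-values adjusted by Benjamini-Hochberg over all genes tested, and called at 0.05. HSC were compared with classes in 1 fit of all classes, and classes of dissected libraries with the library as a block. The fit of all classes had no library term, so sums of several classes from 1 dissected library entered as if independent. Its p-values carry that limit. SEs were approximated as the absolute log2 change divided by the root of F. Alternatives used DESeq2 1.42.0, library totals, no expression filter, other minimums of cells and transcripts, finer clusters, no block and each library left out. The fit was checked on simulated data.

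Named genes were, per comparison, up to 12 members per direction past the threshold, the 3 most abundant members of each complex, isoform sets, and leading genes of the other lists. The members and lists were chosen with earlier results of these data known. The early erythroblast-like and promyelocyte-like classes could not be fitted as designed, since 1 library held both, and the fit used stages by cluster. Positions are from GENCODE and promoters from RefSeq (GRCm38.p6). Figures were drawn with matplotlib 3.10.9.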

Additional observations from a re-analysis of the deposited data

Results flagged for a closer look

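In 3 of 36 groups of libraries examined, 1 library stood far from the others, and chance alone flags about 1 in 20 groups. Among promyelocyte-like cells, dissected replicate 4 had 0.0294% of its transcripts from complex II, the lowest of 7 libraries, where the next was at 0.0543% and the highest at 0.072%. Among the same 7 libraries, dissected replicate 11 had 0.077% from cytochrome c, where the next was at 0.0479% and the lowest at 0.0289%. Among early erythroblast-like cells by cluster, dissected replicate 15 had 1.15% from complex I, the highest of 8 libraries, where the next was at 0.932% and the lowest at 0.84%.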

How the results depend on the processing

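No member call reversed under any alternative run, and 24 of 78 calls were kept under all of theirs. Alternatives that stage by cluster, leave out muscle-like cells or leave out libraries in fits by cluster were chosen after seeing the data. The members called numbered, for sorted HSC against dissected (10), 6 with cells of at least 2000 transcripts. For sorted HSC against promyelocyte-like (7) they numbered 11 with DESeq2, 13 with a fit of the 2 classes alone and 3 with sums of at least 10 cells. For sorted HSC against early erythroblast-like by cell (10) they numbered 20 with a fit of the 2 classes alone, 4 with at least 2000 transcripts and 6 with no expression filter, and by cluster (11) 20 with DESeq2, 22 with library totals and 20 with sums of at least 10 cells. For late against early erythroblast-like by cell (2) they numbered 0 with DESeq2, 13 by cluster, 4 with library totals, 0 with no expression filter, 8 with no library block and 9 with sums of at least 3 cells, and by cluster (13) 32 with no expression filter and 8 with sums of at least 3 cells. For myelocyte-like against promyelocyte-like (14) they numbered 4 with DESeq2, 7 with at least 2000 transcripts, 6 with finer clustering, 29 with library totals, 6 with no expression filter and 1 with sums of at least 3 cells. For mature neutrophil-like against myelocyte-like (0) they numbered 1 with finer clustering, 1 with library totals, 6 with no expression filter, 2 with no library block and 1 with sums of at least 3 cells. For early erythroblast-like against promyelocyte-like (11) they numbered 4 with DESeq2, 18 with library totals, 7 with no expression filter and 7 by cell with sums of at least 3 cells. Fewer or more genes were tested where the filter, the cells or the libraries changed; beyond that, the cause was not tested.

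Leaving out 1 library at a time gave 5 to 10 calls for sorted HSC against dissected, 4 to 8 against promyelocyte-like, 2 to 10 against early erythroblast-like by cell and 4 to 21 by cluster. It gave 9 to 14 for late against early erythroblast-like by cluster, 7 to 12 for myelocyte-like, 0 to 5 for mature neutrophil-like and 5 to 14 for early erythroblast-like against promyelocyte-like. The respiratory chain share moved beyond its spread only without marker genes, to 1.69% in myelocyte-like and 2.19% in eosinophil-like cells. No paired analysis was possible because the labels give no replicate number shared by sorted and dissected libraries, while classes within dissected libraries were paired by library. Late against early by cell could not be fitted with 1 library left out (1 pair leaves no residual degrees of freedom) or with sums of at least 10 cells, and with at least 2000 transcripts neither it nor the neutrophil comparison could be fitted.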
